A study of Mus musculus with 8 samples.

Results

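The genes described are 38 receptors, junction proteins, transcription factors and other products that mark vascular endothelium, chosen by name. Each was read from the probe set that names it alone and had the highest mean log2 value over the 8 arrays. All 38 were found among 18193 genes, and 71 probe sets named one of them. RNA came from the retinal pigment epithelium (RPE) and choroid of male C57BL/6 mice, with no treatment named in the labels. Young mice were 4 months and old mice 26 months of age, with 4 arrays for each age, and each sample pooled the 4 RPE/choroids of 2 mice. A replicate therefore stands for a pair of animals, and single mice were not measured. Values are linear intensities as deposited, a difference is old minus young on the log2 scale, and a gene is called lower or higher when limma's adjusted p over all probe sets was under 0.05. The number of arrays limits the precision of every value.

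The choroid is a dense vascular bed behind the RPE, and its innermost layer, the choriocapillaris, has fenestrated endothelium that depends on VEGF made by the RPE. Retinal vessels, by contrast, have tight barrier endothelium rich in claudin-5. Endothelial identity is kept by ETS and SOX transcription factors, and vessel stability by the angiopoietin receptor Tie2, its relative Tie1 and the junctional cadherin VE-cadherin. Some of these genes are not exclusive to endothelium: Pecam1, Cd34, Cd93, Fli1, Ets1 and Tal1 are also used by blood cells or their progenitors.

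More of the endothelial genes fell than rose in the old RPE/choroid. Of the 38 genes, 14 were lower and 2 were higher, where 9.56% of all 18193 genes were lower and 11.8% higher. Only 2 of the 38 lay below the median level of all probe sets, and genes of low level are part of these shares. Among probe sets above that median, 18 of 36 members were lower and 2 higher, against 1894 lower and 2419 higher of 12214 genes. The median log2 difference of the 38 genes was -0.26, against -0.02 over all genes, and 30 of the 38 had a negative sign, which 53.5% of all genes had. The lower genes were Cldn5, Icam2, Tek, Tie1, Kdr, Cd34, Ramp2, Clec14a, Cdh5, Emcn, Egfl7, Esam, Ptprb and Plvap, and the higher genes were Cd93 and Fli1. In 15 of the 38 genes all 4 old arrays lay below all 4 young arrays, as in 13.7% of all genes, and in 2 they lay above, as in 15.8%. The falls were moderate. None of the 38 passed a fold over 2 with an adjusted p under 0.01, the thresholds that the study's methods give, on the intensities as deposited, where 0.0989% of all genes passed downward and 1.13% upward. Cldn5 lay at the edge of these thresholds. It passed them after quantile normalization (log2 difference -1.04, adjusted p = 0.004), with array weights (-1.03, adjusted p = 0.00228), without old replicate 1 (-1.08, adjusted p = 0.00504) and without old replicate 2 (-1.11, adjusted p = 0.00475). The count of lower genes among the 38 was 8 without old replicate 3 and from 10 to 19 without any other single array. Over all 18193 genes the lower count also fell, from 1739 with all 8 arrays to 953 without old replicate 3. Without both old replicates 2 and 4 the counts were 4 of the 38 and 700 of all genes. The median log2 difference of the 38 genes was -0.217 without old replicate 3 and -0.2195 without both old replicates 2 and 4. Platelet markers stood apart in old replicate 2 and inner retinal neuron markers in old replicate 4. The part of these markers in the counts was not tested. The tissue was measured in bulk and the intensities were normalized. Fewer endothelial cells, less RNA per endothelial cell and a larger share of RNA from other cells therefore cannot be told apart.

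**Figure D1:**
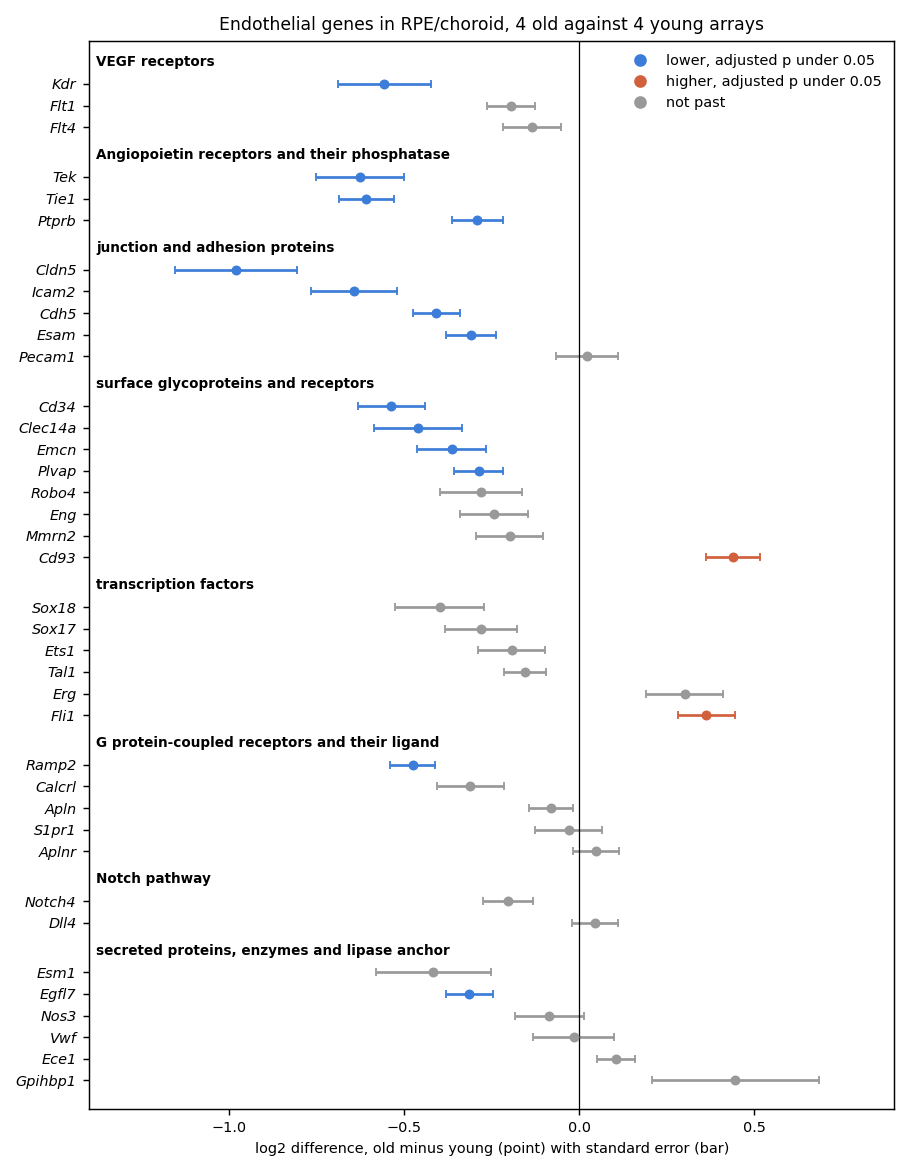
Log2 difference, old minus young (horizontal axis), of the 38 endothelial genes grouped by role (vertical axis), with the standard error as a bar. Blue points are the 14 lower genes, red points the 2 higher genes, Cd93 and Fli1, and grey points the 22 that did not pass; Cldn5 lies farthest left at -0.98.

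Both angiopoietin receptors and their phosphatase were lower, as was the main VEGF receptor. Tie1, an orphan receptor that modulates Tie2 signaling, had intensities of 617, 612, 538 and 534 in young replicates 1 to 4 and of 419, 380.1, 357 and 353 in old replicates 1 to 4. Every old array was below every young array, and the log2 difference of -0.61 (standard error 0.08, adjusted p = 0.00112) was the one with the smallest p among the 38 genes. Tek, which encodes Tie2, the receptor for angiopoietins, was at 1124, 1134, 1078 and 990.5 in the young and 914, 681, 579 and 664 in the old arrays. The groups did not overlap, although old replicate 1 stood well above the other old arrays, and the log2 difference was -0.63 (standard error 0.12, adjusted p = 0.00975). Ptprb, the endothelial phosphatase VE-PTP that acts on Tie2 and VE-cadherin, was at 1085, 1118, 993 and 1033 in young and 979, 819, 814 and 852 in old arrays. Old replicate 1 was again nearest to the young arrays, and the log2 difference was -0.29 (standard error 0.07, adjusted p = 0.0254).

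Kdr encodes VEGF receptor 2, the main signaling receptor for VEGF in endothelium. Its intensities were 3874, 3010.3, 2831 and 2849 in the young and 2593, 1802, 1961 and 2192 in the old arrays, a 1.47-fold fall and a log2 difference of -0.56 (standard error 0.13, adjusted p = 0.0205). Young replicate 1 was the highest of the young arrays by a wide margin, and old replicate 1 was the highest of the old. The other VEGF receptors did not pass. Flt1, which encodes VEGF receptor 1, a decoy with high affinity for VEGF, ranged over 872 to 1006 on the young and 742 to 865 on the old arrays without overlap, with a log2 difference of -0.19 (standard error 0.07, adjusted p = 0.0803). Flt4, the receptor for VEGF-C on lymphatic and fenestrated endothelium, had a log2 difference of -0.14 (standard error 0.08, adjusted p = 0.293), and the ages overlapped. Kdr missed the threshold without old replicate 2 (adjusted p = 0.0518) and without old replicate 3 (adjusted p = 0.0594). For Ptprb the adjusted p ran from 0.0504 to 0.0724 without any 1 array other than young replicate 3 or old replicate 1.

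Among junction and adhesion proteins, 4 of 5 genes were lower. Cldn5 encodes claudin-5, the tight junction protein that seals barrier endothelium. Its intensities were 1686, 1650.0, 1489 and 1581 in young replicates 1 to 4 and 1002, 1051, 582 and 704 in old replicates 1 to 4. All old arrays were below all young arrays, and old replicates 3 and 4 were far below old replicates 1 and 2. The mean fell from 1601 ± 86.8 to 835 ± 228 (SD, n = 4), 1.97-fold by the means of log2 values, with a log2 difference of -0.98 (standard error 0.17, adjusted p = 0.00557), the most negative of the 38. The study had itself picked Cldn5 from these arrays for its change, so its direction is not independent evidence.

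Icam2, a constitutive adhesion molecule of endothelium that binds leukocyte integrins, was at 560.0, 559, 500.4 and 480.0 in young and 435, 328, 299.9 and 295 in old arrays. The old arrays lay below the young without overlap, and the log2 difference was -0.64 (standard error 0.12, adjusted p = 0.00791). Cdh5, which encodes VE-cadherin, the adherens junction protein that defines endothelium, was measured at 175, 192, 168 and 186 in young and 141, 146, 127 and 130.1 in old arrays. These intensities are close to the array medians of 129 to 135 over all probe sets, but the ages did not overlap, and the log2 difference was -0.41 (standard error 0.07, adjusted p = 0.00427). Esam, a tight junction protein of endothelium and platelets, was at 1392, 1349, 1194 and 1197 in young and 1071, 1098, 969.6 and 999 in old arrays, a log2 difference of -0.31 (standard error 0.07, adjusted p = 0.0193). It missed the threshold without young replicate 1 (adjusted p = 0.0514) and without old replicate 3 (adjusted p = 0.0574).

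Pecam1, which encodes CD31, an adhesion protein of endothelium that is also carried by leukocytes and platelets, did not pass. It was at 318, 363, 299 and 289 in young and 332, 357, 298 and 301 in old arrays, which overlapped widely. The log2 difference was 0.02 (standard error 0.09, adjusted p = 0.883), with a 95% interval of -0.18 to 0.22 on the log2 scale. In the old tissue the leukocyte markers described further on rose, and their part in the level of Pecam1 was not tested.

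**Figure D2:**
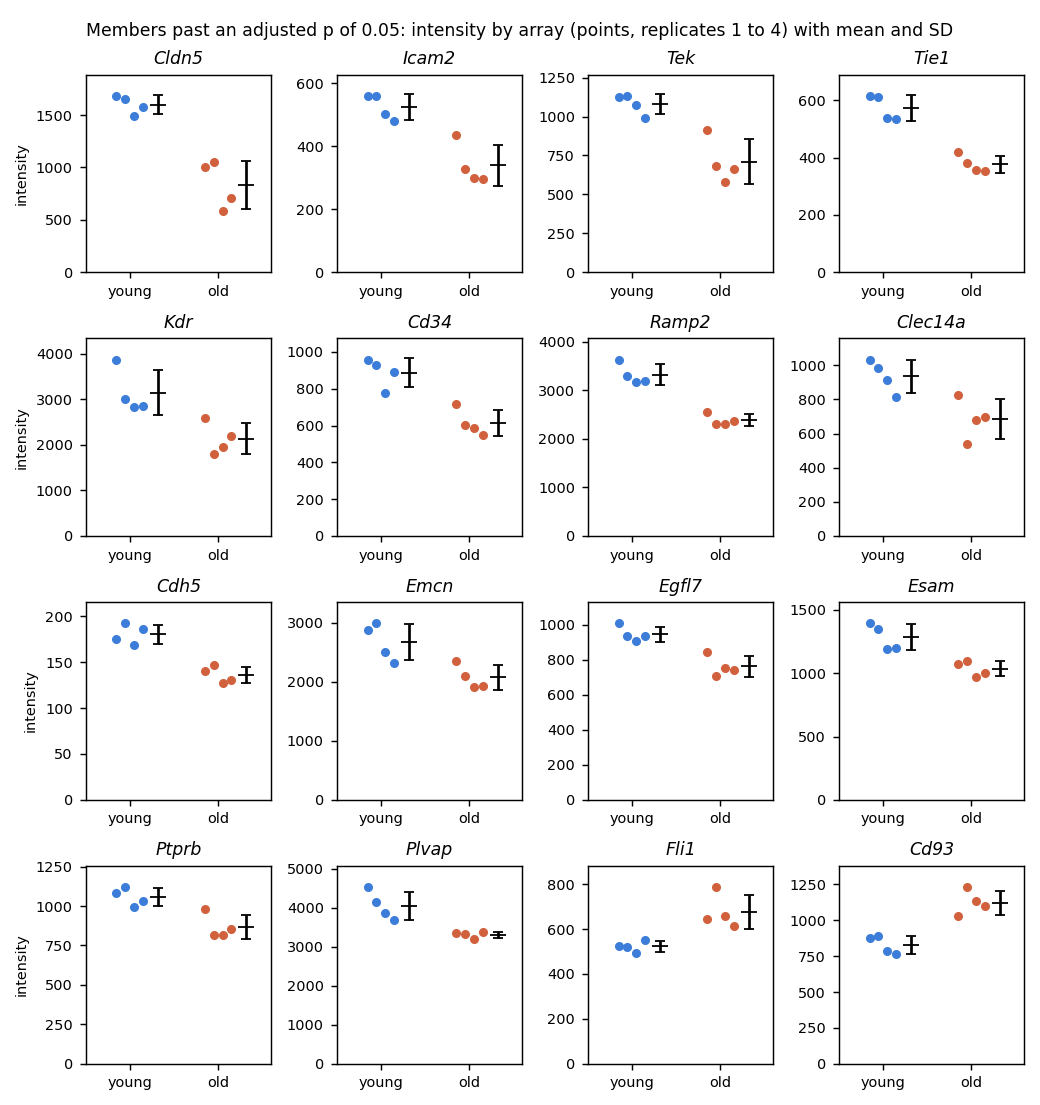
Intensity of the 16 endothelial genes past an adjusted p of 0.05 (vertical axis, from 0) in 4 young (blue) and 4 old (red) arrays, drawn from left to right as replicates 1 to 4, with the mean and SD in black. Of the 14 lower genes, 12 show no overlap between the ages, and Emcn and Clec14a overlap by 1 young array each.

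Of 8 surface glycoproteins and receptors, 4 were lower and 1 was higher. Cd34, a sialomucin of endothelium and blood progenitors, was at 958, 927, 777 and 889 in young and 716, 602, 588 and 547 in old arrays, with every old array below every young array. Its log2 difference was -0.54 (standard error 0.10, adjusted p = 0.00593). Plvap encodes the protein of the diaphragms that span endothelial fenestrae and marks the choriocapillaris. It was at 4523, 4136, 3877 and 3687 in young and at 3342, 3326, 3205 and 3382 in old arrays. The old arrays were tightly grouped and all below the young, and the log2 difference of -0.29 (standard error 0.07, adjusted p = 0.0212) was a 1.22-fold fall.

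Clec14a, an endothelial C-type lectin that binds multimerin-2, was at 1033, 982, 913 and 813 in young and 825, 539, 677 and 698 in old arrays. Old replicate 1 was slightly above young replicate 4, and the log2 difference was -0.46 (standard error 0.13, adjusted p = 0.0344). Emcn, an endothelial sialomucin of capillaries and veins, was at 2880.4, 2989, 2510.1 and 2326 in young and 2359.7, 2094, 1917 and 1929 in old arrays, where old replicate 1 again exceeded young replicate 4. Its log2 difference was -0.36 (standard error 0.10, adjusted p = 0.0327). Both calls lay near the threshold and were lost in most of the runs without 1 array. In those 8 runs the log2 difference ran from -0.43 to -0.31 for Emcn and from -0.55 to -0.35 for Clec14a. Emcn missed the threshold without any 1 array other than young replicate 4 or old replicate 1 (adjusted p from 0.0559 to 0.0885), and so did Clec14a (adjusted p from 0.0595 to 0.0883). Plvap missed it without old replicate 3 (adjusted p = 0.0607).

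Cd93, a receptor of endothelium and myeloid cells that also binds multimerin-2, went the other way. It was at 878, 889, 784 and 762 in young and 1033, 1229.6, 1131 and 1097 in old arrays, all old above all young, a 1.36-fold rise with a log2 difference of 0.44 (standard error 0.08, adjusted p = 0.00515). Its partner Mmrn2, the extracellular matrix protein multimerin-2, had a log2 difference of -0.20 (standard error 0.10, adjusted p = 0.179). Eng, a coreceptor for TGF-beta and BMP ligands, had one of -0.24 (standard error 0.10, adjusted p = 0.117), and Robo4, a guidance receptor that stabilizes vessels, one of -0.28 (standard error 0.12, adjusted p = 0.13). In all 3 the ages overlapped. Eng passed without old replicate 1 (adjusted p = 0.0423) and Robo4 without old replicate 2 (adjusted p = 0.0465).

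Of 6 transcription factors 1 passed, Fli1, which was higher. Sox17, Sox18 and Tal1, with negative differences, and Erg, with a positive one, had an unadjusted p under 0.05. Fli1, an ETS factor of endothelium and of megakaryocytes and other blood cells, was at 523, 522, 495 and 553 in young and 643, 786, 659.8 and 613 in old arrays. All old arrays were above all young arrays, old replicate 2 the highest, and the log2 difference was 0.36 (standard error 0.08, adjusted p = 0.0161). For Cd93 and Fli1, the part of the leukocyte and platelet markers that rose on the same arrays was not tested. Erg, the ETS factor most closely tied to endothelial identity, was at 490.0, 421, 426 and 475 in young and 532, 687, 554 and 474 in old arrays. Old replicate 2 stood above the rest while old replicate 4 lay within the young range, and the log2 difference of 0.30 (standard error 0.11, adjusted p = 0.0878) did not pass. It passed without old replicate 4 (adjusted p = 0.0443).

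The SOXF factors, which act in endothelial and arterial differentiation, had negative differences that did not pass. Sox18 was at 1400.0, 1229, 1175 and 1013 in young and 1067, 735, 908 and 949.9 in old arrays, with a log2 difference of -0.40 (standard error 0.13, adjusted p = 0.0578). The spread within each age was wide, and young replicate 4 lay below old replicate 1. Sox18 passed without young replicate 4 (adjusted p = 0.0412) and without old replicate 1 (adjusted p = 0.0342). Sox17 had a log2 difference of -0.28 (standard error 0.10, adjusted p = 0.0908). Ets1 had one of -0.19 (standard error 0.10, adjusted p = 0.193), and passed without old replicate 1 (adjusted p = 0.0447). Tal1, a factor of blood and endothelial progenitors, was at 123 to 143 on the young and 115 to 119 on the old arrays, below or near the array medians, with a log2 difference of -0.15 (standard error 0.06, adjusted p = 0.108).

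Since Erg, Fli1 and Ets1 belong to the ETS family, the RefSeq promoters of the genes (build GRCm38.p6) were searched for an ETS site over the 250 bases before each transcription start. The promoter table held 28 starts for 20 of the 38 genes. The letters CAGGAAG, on either strand, were found in 9 of the 28 (32.1%) and in 10.8% of all 32851 promoters of the same length. The variant CCGGAAG was found in 0 of the 28 and in 6.91% of all. A SOX site, AACAAT on either strand, was found in 4 of the 28 and in 9.42% of all, and a GATA site, AGATAA, in 2 and in 9.99%. The ETS motifs share the core GGAAG, and no 2 matches overlap in the stretches shown. The genes with CAGGAAG were the lower genes Cd34, Egfl7 and Emcn, and Apln, Calcrl, Erg, Notch4 and Robo4, which did not pass. A match describes these letters only and not a bound site. The stretches of the 3 lower genes with a match are shown with CAGGAAG, or its reverse complement CTTCCTG, in capitals, and beside them that of Cldn5, the gene with the most negative difference, which held none of the 4 motifs.
Cd34, chr1:194938571-194938820, plus strand: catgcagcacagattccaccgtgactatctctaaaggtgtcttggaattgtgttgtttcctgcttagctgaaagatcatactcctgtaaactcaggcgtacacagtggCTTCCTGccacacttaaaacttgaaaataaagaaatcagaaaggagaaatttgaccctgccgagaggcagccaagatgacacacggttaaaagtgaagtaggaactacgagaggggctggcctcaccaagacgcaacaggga
Egfl7, chr2:26580833-26581082, plus strand, the first of 3 starts: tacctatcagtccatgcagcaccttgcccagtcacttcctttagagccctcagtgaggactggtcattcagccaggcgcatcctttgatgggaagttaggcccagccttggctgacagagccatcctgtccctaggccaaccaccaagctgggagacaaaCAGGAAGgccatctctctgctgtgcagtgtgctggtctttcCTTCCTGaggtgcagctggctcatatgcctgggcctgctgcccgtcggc
Emcn, chr3:137340828-137341077, plus strand: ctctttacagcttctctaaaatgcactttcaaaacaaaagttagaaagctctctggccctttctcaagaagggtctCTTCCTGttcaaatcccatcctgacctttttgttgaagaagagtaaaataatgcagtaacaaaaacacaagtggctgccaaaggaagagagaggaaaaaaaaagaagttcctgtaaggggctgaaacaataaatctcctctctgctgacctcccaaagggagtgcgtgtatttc
Cldn5, chr16:18776597-18776846, plus strand: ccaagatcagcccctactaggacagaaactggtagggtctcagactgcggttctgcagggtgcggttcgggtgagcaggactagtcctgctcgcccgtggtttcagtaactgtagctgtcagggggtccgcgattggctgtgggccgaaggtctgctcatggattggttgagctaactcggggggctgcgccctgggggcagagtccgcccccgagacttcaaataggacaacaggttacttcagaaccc

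In the stretch of Cd34 the match begins 142 bases before the start. Egfl7 holds 1 match at 90 and 1 at 49 bases before its first start, and Emcn holds 1 at 174. Of the 8 lower genes with a promoter in the table, 3 held CAGGAAG, and the others, Cldn5, Clec14a, Kdr, Tek and Tie1, held neither ETS motif in this window. Of all 20 genes with a promoter in the table, lower or not, 8 held CAGGAAG, Egfl7 at more than 1 start.

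Among 5 genes of G protein-coupled receptors, their accessory protein and a ligand, 1 was lower, the accessory protein Ramp2, and none of the receptors passed. Ramp2, which makes Calcrl a receptor for adrenomedullin, was at 3636, 3299.6, 3164 and 3189.7 in young and 2565, 2301, 2302 and 2378 in old arrays. The ages were well apart, and the log2 difference of -0.48 (standard error 0.07, adjusted p = 0.00155) had the second smallest p of the 38. Calcrl, the receptor itself, was at 765, 805, 742 and 743 in young and 758, 595, 564 and 563 in old arrays. Old replicate 1 lay among the young arrays and the other old arrays below them, and the log2 difference was -0.31 (standard error 0.10, adjusted p = 0.0523). Without old replicate 1 it passed, with a log2 difference of -0.41 (adjusted p = 0.00259). S1pr1, the receptor that tightens junctions in response to sphingosine-1-phosphate, had a log2 difference of -0.03 (standard error 0.10, adjusted p = 0.858). Apln, the apelin ligand of tip cells, had one of -0.08 (standard error 0.06, adjusted p = 0.404) and its receptor Aplnr one of 0.05 (standard error 0.07, adjusted p = 0.647), by a probe set at 68.4 to 80.5 on the young and 73.5 to 77.9 on the old arrays, below the array medians.

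In the Notch pathway neither gene passed. Notch4, an endothelial Notch receptor, was at 294 to 370.3 on the young and 278 to 289.6 on the old arrays without overlap, with a log2 difference of -0.20 (standard error 0.07, adjusted p = 0.0805). Dll4, the Notch ligand of tip cells and arteries, had one of 0.05 (standard error 0.07, adjusted p = 0.67) and a 95% interval of -0.10 to 0.19 on the log2 scale.

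Of 6 secreted proteins, enzymes and a lipase anchor, 1 was lower. Egfl7, a secreted endothelial protein that shapes the vessel tube, was at 1008, 936, 907 and 935 in young and 845, 707, 755 and 742 in old arrays. The ages did not overlap, and the log2 difference was -0.31 (standard error 0.07, adjusted p = 0.0137). Esm1, the proteoglycan endocan induced by VEGF in tip cells, was at 485, 539.9, 513 and 491 in young and 545, 310.4, 308 and 398 in old arrays. Old replicate 1 was above every young array while the other old arrays were below all of them, and the log2 difference was -0.42 (standard error 0.16, adjusted p = 0.11). Without old replicate 1 it was -0.59 (adjusted p = 0.00579). Vwf, the clotting protein stored in endothelial granules, had a log2 difference of -0.02 (standard error 0.11, adjusted p = 0.937), with all old arrays (705 to 799.8) inside the young range (627 to 872). Nos3, endothelial nitric oxide synthase, had one of -0.09 (standard error 0.10, adjusted p = 0.584), and Ece1, which activates endothelin, one of 0.11 (standard error 0.05, adjusted p = 0.204). Gpihbp1, the capillary anchor of lipoprotein lipase, was at 156, 133, 142 and 127 in young and 149, 341, 161 and 158 in old arrays, where old replicate 2 alone was high, and its log2 difference was 0.45 (standard error 0.24, adjusted p = 0.224).

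**Figure D3:**
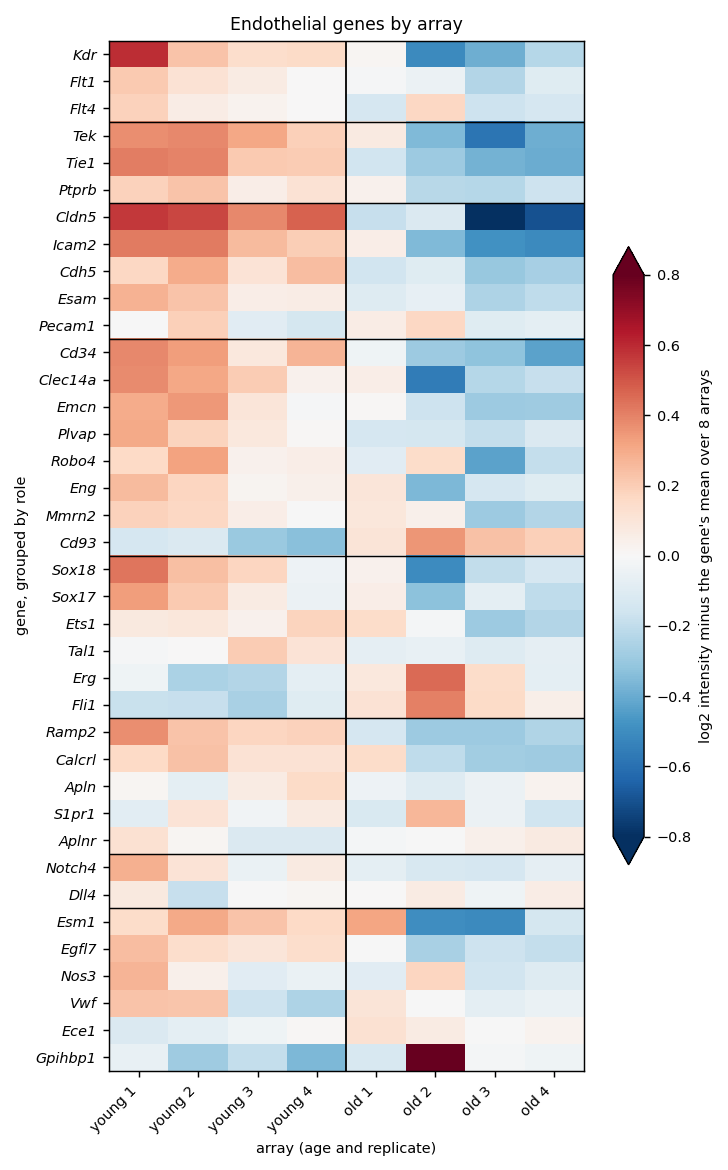
Log2 intensity of each of the 38 genes (rows, grouped by role) on each array (columns, age and replicate), minus the gene's mean over the 8 arrays. Red is above and blue below that mean; the lower genes are pale in old replicate 1 and darkest in old replicates 2 to 4, and Gpihbp1 is above the colour scale in old replicate 2.

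The arrays of one age were not alike for these genes. Of the 14 lower genes, old replicate 1 was the highest old array for 10, old replicate 2 for 3 and old replicate 4 for 1. Old replicate 3 was the lowest old array for 7, old replicate 2 for 4 and old replicate 4 for 3. Among the young arrays, replicate 1 was the highest for 10 and replicate 2 for 4, and the lowest was replicate 3 for 8 and replicate 4 for 6. The mean centred log2 value over all 38 genes was 0.20, 0.15, 0.05 and 0.05 in young and 0.00, -0.07, -0.21 and -0.17 in old arrays. The old arrays were thus below the young in this mean, with old replicate 1 the closest. The lower genes Cldn5, Tek, Tie1, Cdh5, Egfl7, Ramp2, Cd34 and Icam2 and the higher genes Fli1 and Cd93 stayed past the threshold without any 1 of the 8 arrays.

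Several genes were measured by more than 1 probe set. Of the 18 genes with several, 6 had probe sets of both signs. Among these was Ptprb, lower by the probe set used, whose others had log2 differences of -0.20 (standard error 0.08, adjusted p = 0.102) and 0.22 (standard error 0.17, adjusted p = 0.419). The second probe set of Cdh5 had one of -0.13 (standard error 0.08, adjusted p = 0.259). All 4 probe sets of Egfl7 were lower, at -0.31, -0.34, -0.57 and -0.42 on the log2 scale. The second probe set of Clec14a was also lower, with a log2 difference of -0.74 (standard error 0.16, adjusted p = 0.015). A second probe set of Cd93 was also higher, at 0.46 (standard error 0.07, adjusted p = 0.00219), and its other 3 did not pass. For Fli1, higher by the probe set used, the second did not pass and its ages overlapped. It had a log2 difference of 0.14 (standard error 0.09, adjusted p = 0.319). The second probe set of Erg had one of -0.01 (standard error 0.07, adjusted p = 0.915).

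In 3 genes that did not pass by the probe set used, another probe set did. For Flt1 a second probe set had a log2 difference of -0.23 (standard error 0.06, adjusted p = 0.022) and for Ets1 one of -0.41 (standard error 0.12, adjusted p = 0.0461). A second probe set of Aplnr was at 49, 48.6, 39.6 and 55.9 in young and 40.6, 25.6, 14.9 and 19.4 in old arrays, a log2 difference of -1.03 (standard error 0.26, adjusted p = 0.0267), against 0.05 for the probe set used. Both probe sets of Aplnr lie below the array medians, and detection calls were not used here.

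**Figure D4:**
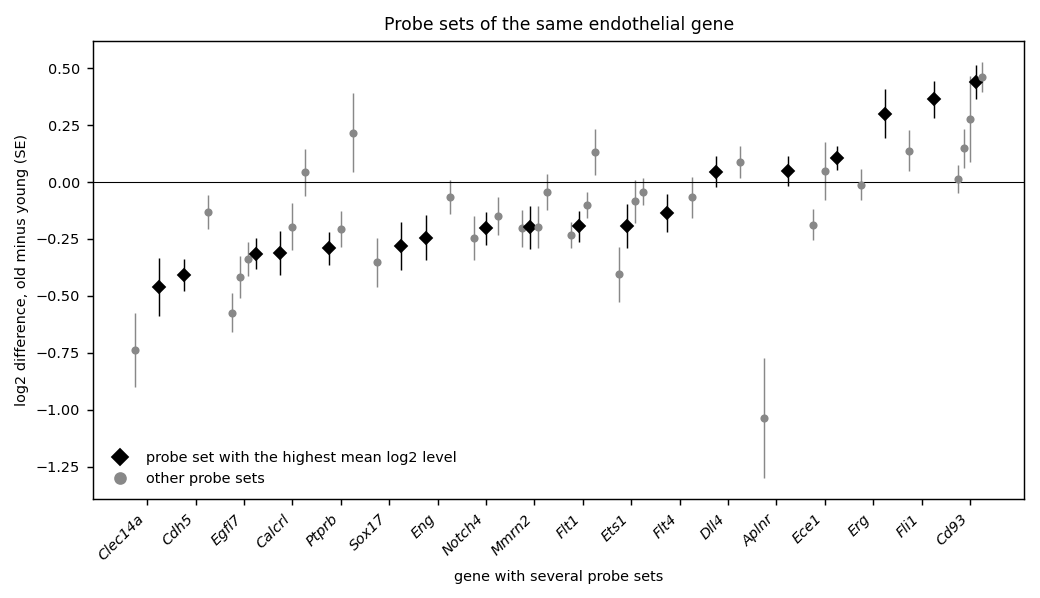
Log2 difference, old minus young (vertical axis), for every probe set of the 18 endothelial genes measured by more than 1 (horizontal axis), with the standard error as a bar. Black diamonds are the probe sets used and grey points the others; those of Egfl7 all lie below 0 and those of Cd93 all above, whereas the 2 of Aplnr lie far apart.

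The ligands and partners of these receptors were more often lower than higher. Of 35 measured, 9 were lower (25.7%, against 9.56% of all genes) and 3 higher (8.57%, against 11.8%), with a median log2 difference of -0.15. Adm, the adrenomedullin that Calcrl and Ramp2 receive, fell from 499 ± 27.6 to 267 ± 40.1 (SD, n = 4), a log2 difference of -0.91 (standard error 0.10, adjusted p = 0.000563). Ramp1, which turns Calcrl into a receptor for the neuropeptide CGRP, rose by 0.62 (adjusted p = 0.00139). Angpt1, the activating ligand of Tie2, had a log2 difference of -0.39 (adjusted p = 0.0386), with the ages overlapping. Slit3, a guidance ligand of Robo receptors, rose by 0.96 (adjusted p = 0.00125), and Ednrb, an endothelin receptor of endothelium and melanocytes, had a log2 difference of -0.46 (adjusted p = 0.00551). Vegfc, Robo1, Jag2, Podxl, Tjp1 and Cav1 were also lower, with log2 differences from -0.40 to -0.29, and Tgfbr2 was higher, at 0.37. Vegfa, a ligand of the Kdr receptor, did not pass, at -0.07 (standard error 0.06, adjusted p = 0.466), and its ages overlapped.

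A second list of 39 further endothelial genes had a median log2 difference of -0.15. It held 10 genes that were lower and 5 that were higher, 25.6% and 12.8%, against 9.56% and 11.8% of all genes. Their mean centred log2 value overlapped between the ages, at 0.00 to 0.05 (young) and -0.06 to 0.02 (old). The summed intensity did not overlap and was higher in the old arrays, at 32520.3 to 34834 (young) and 38201 to 38668 (old). The genes that rose included the fatty acid carriers Fabp4, at a log2 difference of 1.88 (adjusted p = 0.000215), and Fabp5, at 0.83 (adjusted p = 0.000284), and the fatty acid receptor Cd36, at 0.83 (adjusted p = 0.000814). Ctla2a, at 0.60, and Procr, the protein C receptor, at 0.30, made up the 5. Fabp4, Fabp5 and Cd36 are also made by macrophages, whose part in these rises was not tested. Ushbp1, an endothelial protein of poorly known function, had the most negative value of the list, -0.79 (adjusted p = 0.000448). Of 5 lymphatic endothelial genes 0 passed by limma, where 9.56% of all genes were lower and 11.8% higher. Of these 5 genes, 4 had a negative difference, as had 53.5% of all genes, and the median log2 difference was -0.21. Only 1, Pdpn (adjusted p = 0.0585), had an unadjusted p under 0.05. Prox1, the lymphatic master regulator, came next (adjusted p = 0.19).

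Of 16 genes typical of barrier endothelium, as in retinal vessels, 6 were lower and 1 was higher, with a median log2 difference of -0.14. These shares were 37.5% and 6.25%, against 9.56% and 11.8% of all genes. Slco1a4 and Slco1c1, organic anion and thyroid hormone carriers of the barrier, had log2 differences of -0.81 (adjusted p = 0.0032) and -0.76 (adjusted p = 0.00461). Lef1, a Wnt effector, had one of -0.41 (adjusted p = 0.00175). Abcb1a, a drug efflux pump, had one of -0.36, Lsr, a tricellular junction protein, one of -0.31, and the glucose transporter gene Slc2a1, which the RPE also uses, one of -0.31. Slc7a5, an amino acid transporter, rose by 0.92 (adjusted p = 0.0123).

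Markers of other cell types moved on the same arrays, and their part in the endothelial values was not tested. Of 12 leukocyte markers 11 passed, all of them higher, and their summed intensity was 15851 to 17958 on the young and 29198 to 33380.3 on the old arrays. Ptprc, the leukocyte common antigen, rose by 1.30, Cd52 by 1.35, Cd53 by 1.31 and Itgb2, the integrin chain that binds Icam2, by 1.51 on the log2 scale. Of 8 platelet markers 3 were higher: Clec1b, Ppbp and Gp5, at 1.22, 1.06 and 0.18. Higher genes made up 91.7% of the leukocyte and 37.5% of the platelet markers, against 11.8% of all genes. The platelet mean, over centred log2 values, lay at -0.23 to -0.15 for the young arrays, at 0.51 for old replicate 2 and between -0.13 and 0.22 for the remaining old arrays. Among the 5 measured genes of erythroid cells, Ermap had a log2 difference of -1.02 and Epb42 one of 0.26, and both passed. In that list 20% were lower and 20% higher, against 9.56% and 11.8% of all genes.

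Of 16 genes of pericytes and smooth muscle, the mural cells that wrap vessels, 3 passed, all of them higher: Anpep, an aminopeptidase also found on myeloid cells, at 1.09 (standard error 0.09, adjusted p = 8.9e-05), Pdgfrb, the receptor that recruits pericytes, at 0.32 (standard error 0.07, adjusted p = 0.0114), and Abcc9, a potassium channel subunit, at 0.24 (standard error 0.07, adjusted p = 0.0327). Of 10 fibroblast markers 1 passed, Pdgfra, which was higher. Higher genes were thus 18.8% of the mural and 10% of the fibroblast list, near the 11.8% of all genes. The summed intensity of the mural genes was 21678 to 24630.1 on the young and 21055 to 23998 on the old arrays, which overlapped.

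Genes of the RPE, of pigment cells and of neural tissue were among those lower in the old arrays. Lower genes made up 50% of RPE, 87.5% of melanocyte and 38.5% of inner retinal neuron markers. They made up 41.7% of Mueller glia and astrocyte and 40% of Schwann cell markers, against 9.56% of all genes. Higher genes were 15.4% of the neuron and 8.33% of the Mueller glia and astrocyte markers, against 11.8% of all genes. All 10 RPE markers were measured, with a summed intensity of 87878 to 92194 on the young and 78623 to 83077 on the old arrays, and 5 were lower, Rrh, Rlbp1, Slc16a8, Lrat and Rdh5, with log2 differences from -0.55 to -0.20. Lower genes numbered 7 of 8 among melanocyte markers, 5 of 13 (with 2 higher) among inner retinal neuron markers, 5 of 12 (with 1 higher) among markers of Mueller glia and astrocytes and 2 of 5 among Schwann cell markers, Mbp and Sox10. Among these were Kit, Slc45a2, Tyr and Pmel of melanocytes, at -0.58, -0.49, -0.41 and -0.35, and Cartpt, Stmn3, Grik1, Gria1 and Slc6a9 of inner retinal neurons, at -2.65 to -0.34, where Prkca and Thy1 were higher. The study placed the rise of Thy1 under leukocyte extravasation, so Thy1 is not a marker of neurons alone. The glial genes were Fabp7, Slc1a3, Sox2, Gfap and Rlbp1, which the RPE shares, at -1.62 to -0.27, with Vim higher. Summed intensities were 57823 to 59056 on the young and 45602 to 54557 on the old arrays for melanocytes, and 42904 to 44353 (young) and 41332 to 43204 (old) for Mueller glia and astrocytes. The centred log2 values of inner retinal genes averaged 0.30 to 0.41 in the young, -0.58 to -0.50 in old replicates 1 to 3 and 0.18 in old replicate 4. Of 7 rod markers 0 passed by limma and 0 had an unadjusted p under 0.05, with Sag (adjusted p = 0.194) and Crx (adjusted p = 0.222) nearest. Of all genes, 9.56% were lower and 11.8% higher. All 7 rod markers had a negative difference, as had 53.5% of all genes, and their median log2 difference was -0.62. The rod mean varied widely within each age, and the ages overlapped. It ran from -0.46 (replicate 4) to 0.63 in the young and from -0.85 to 0.66 (replicate 4) in the old arrays.

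**Figure D5:**
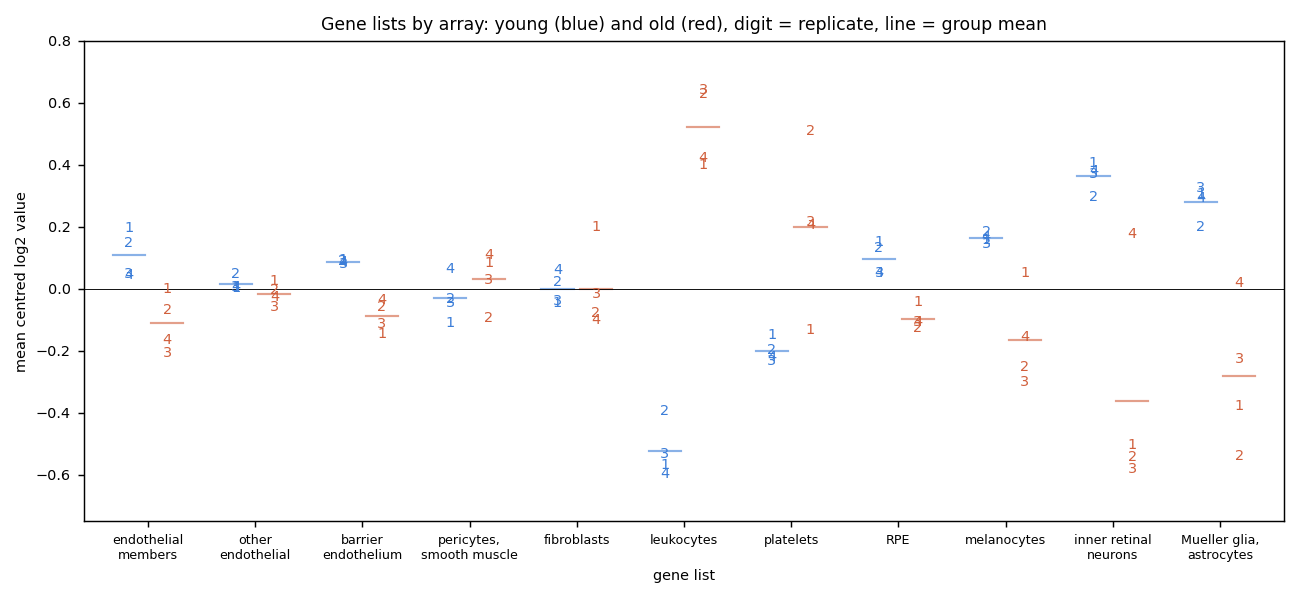
Mean log2 value of each gene list, after subtracting each gene's own 8-array mean (vertical axis), for young (blue) and old (red) arrays, where the digit is the replicate and the line the group mean. The endothelial genes lie at 0.05 to 0.20 when young and -0.21 to 0.00 when old, whereas the leukocyte list lies at -0.60 to -0.39 and 0.40 to 0.64.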

How the data were processed

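Gene expression was measured on 1-colour mouse arrays of RPE/choroid RNA from 4 young and 4 old samples. The deposited values are linear intensities normalized by the authors. The methods name RMA, Dchip with invariant set normalization, and BRB-ArrayTools, and which of these made the values is not given in the sources used here; another method could give other fold sizes. The methods' filter on absent calls was not applied, since no calls were used here. Intensities were floored at 1 and log2 transformed, with 8 to 14 values per array under the floor, and 64 control probe sets were left out of 45101. Old was compared with young by limma 3.58.1 in R 4.3.3 (lmFit, eBayes) over 45037 probe sets, and p-values were adjusted by Benjamini-Hochberg. Of the probe sets, 34945 named 1 gene, 932 several and 9160 none, and each gene was read from its single-gene probe set of highest mean log2. Symbols were updated through Entrez IDs. All 38 genes were named, with array values for those that passed and for Kdr, Tek, Cdh5, Pecam1 and Plvap whatever their p. Of each other list the rule named up to 4 genes of largest difference among those that passed, the 2 of smallest p where none passed, and all of a count of 5 or fewer; other names were chosen after their values were seen. The members, lists and motifs were chosen with earlier results of these data known. The labels do not say that samples with the same number share a litter, batch or day, and their correlations (0.02 to 0.10) do not pair them. Alternatives changed the floor, filter, scaling, variance model, probe set and arrays. The code was tested on simulated data.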

Additional observations from a re-analysis of the deposited data

Results flagged for a closer look

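Of the 76 groups formed by 38 genes at each age, 2 had 1 array far from the other 3, where chance gives about 1 in 20. Both were old replicate 2. For Gpihbp1 the intensity was 341 there and 149 to 161 on the remaining old arrays, a gap of 0.908 of the group's range, above Dixon's critical value. For Flt4 it was 491 there against 389 to 399, a gap of 0.893 of the range. The mean centred log2 value of the platelet markers was also highest in that array, at 0.51, and its part in these values was not tested.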

How the results depend on the processing

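The count of lower genes among the 38 was 13 to 18, and that of higher genes 2, under a filter on low values, log2 of the value plus 16, quantile normalization, median centring, a trended and robust variance, array weights, any probe set of the gene, and the replicate block. The counts over all genes moved too. The filter gave 1894 lower and 2419 higher of 12214 genes, where 18 of the 36 members tested were lower. Of all 18193 genes, the other settings gave from 1258 lower and 1655 higher (replicate block) to 2452 lower and 2620 higher (array weights). No all-gene count was made for any probe set of the gene. Same-numbered samples shared only a number: the replicate block gave 15 lower and 2 higher genes, and only replicate 1 correlated best with its own number. Leaving out 1 array at a time gave 8 to 19 lower and 2 to 3 higher genes, and leaving out both old replicates 2 and 4, chosen after seeing the data, gave 4 lower and 2 higher. Over all genes the lower count was 1739 with all arrays, 953 to 1766 without 1 array and 700 without both. The higher count over all genes was 2145, 1475 to 2215 and 1067 in the same order. A fold over 2 with an adjusted p under 0.01, applied to the values as deposited, gave 0 lower and 0 higher; Cldn5 passed both thresholds under quantile normalization, with array weights, and without old replicate 1 or old replicate 2. Under these settings the sign turned only in genes whose difference was near 0 in the main comparison. The setting of any probe set took the one of smallest p, and only where it passed. Other probe sets of opposite sign, as in Ptprb, are therefore not counted here. Vwf was at 0.0115 under median centring, 0.0559 with array weights, 0.0051 without both old replicates 2 and 4, and from -0.1013 to 0.0568 without 1 array. Pecam1 was at -0.0067 without both, and ran from -0.0275 to 0.0897 without 1 array. Without 1 array S1pr1 ran from -0.1242 to 0.0174 and Dll4 from -0.0077 to 0.0789. Aplnr was at -1.0349 by its other probe set. The cause was not tested for these genes. With 4 arrays an age, small differences could be missed.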
